A study of Homo sapiens with 6 samples.

Results

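m6A peaks that lie within coding sequence only, with no stop codon, untranslated region or non-coding RNA among the transcript parts they touch, numbered 3789 of the 41729 peaks in 3 lists from U2OS cells, a human bone osteosarcoma line. A peak was counted where its deposited annotation held the coding part and nothing else. The DF2 siRNA 1 list held 1432 such peaks among 13147, the DF2 siRNA 2 list 1219 among 13310 and the control siRNA list 1138 among 15272. They are called coding peaks here.

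The cells, wild type in genotype, received DF2 siRNA 1, DF2 siRNA 2 or a control siRNA, and both DF2 siRNAs target YTHDF2. Cytoplasmic RNA was broken to an average of about 100 nt and enriched with an antibody to m6A, and input RNA was sequenced beside it. Each condition had 1 m6A-IP and 1 input library, 6 samples in all, and is represented by 1 peak list. The lists are marked as merged over 2 runs or replicates, r1 and r2, while the labels give 1 sample of each kind per condition, so what was merged is not known here. With 1 list a condition there was no replicate error, so no difference was tested and no value has an SD. Intervals are 95% exact binomial (Clopper-Pearson) intervals, which cover counting error only. The lists hold no read counts, so neither the depth of the libraries nor the level of an RNA could be given, and the extent of the knock-down could not be checked. YTHDF2 itself held no coding peak in any list. Its 1 peak a list covered the stop codon and stood at score percentile 84.3 in the DF2 siRNA 1 list, 66.6 in the DF2 siRNA 2 list and 99.1 in the control list.

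N6-methyladenosine is placed on messenger RNA by a nuclear complex built on METTL3 and METTL14, which prefers an adenosine within the DRACH consensus, of which GGAC is a common core. It is known to gather around stop codons and in long internal exons, where exon junctions are far from the modified base. YTHDF2 binds the modified base in the cytoplasm and recruits deadenylases, which shortens the life of the bound RNA.

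The letters of a few coding peaks could be read from the RefSeq tables (GRCh38.p14, the same coordinates as hg38), where a peak overlapped the tabled start window or hairpin of another gene. The stretches below show the letters of such overlaps, each on the mRNA strand with every GGAC in capitals. They were chosen after their values were seen. The ARHGEF17 stretch, chr11:73309312-73309611 on the plus strand, lay in a coding peak of all 3 lists. ARHGEF17 encodes a guanine nucleotide exchange factor. The PCBP1 stretch, chr2:70088254-70088458 on the plus strand, lay in a coding peak of both siRNA lists and in a stop codon peak of control. PCBP1 encodes a poly(C)-binding protein in a single exon. The ZBTB12 stretch, chr6:31900749-31900881 on the minus strand, and the TRMT44 stretch, chr4:8440835-8440973 on the plus strand, lay in coding peaks of all 3 lists. ZBTB12 encodes a zinc finger protein and TRMT44 a tRNA methyltransferase. The SON stretch, chr21:33550662-33550728 on the plus strand, is the part of the SON coding peak that RefSeq also lists as the MIR6501 hairpin.
ARHGEF17: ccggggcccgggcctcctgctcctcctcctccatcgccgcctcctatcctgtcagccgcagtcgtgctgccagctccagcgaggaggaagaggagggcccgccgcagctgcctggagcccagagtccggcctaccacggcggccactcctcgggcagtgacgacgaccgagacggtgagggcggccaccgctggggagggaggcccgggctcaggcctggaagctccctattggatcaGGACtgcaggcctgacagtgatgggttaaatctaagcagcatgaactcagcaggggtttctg
PCBP1: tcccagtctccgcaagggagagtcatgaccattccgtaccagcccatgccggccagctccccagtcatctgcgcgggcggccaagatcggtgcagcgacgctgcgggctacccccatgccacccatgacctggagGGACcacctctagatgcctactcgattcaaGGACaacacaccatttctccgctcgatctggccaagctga
ZBTB12: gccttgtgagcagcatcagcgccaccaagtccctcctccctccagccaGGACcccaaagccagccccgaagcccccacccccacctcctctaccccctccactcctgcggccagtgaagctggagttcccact
TRMT44: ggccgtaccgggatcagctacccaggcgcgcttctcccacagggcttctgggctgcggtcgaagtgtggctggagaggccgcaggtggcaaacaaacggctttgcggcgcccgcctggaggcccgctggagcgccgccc
SON: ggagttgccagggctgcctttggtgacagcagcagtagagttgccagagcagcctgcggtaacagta
GGAC occurred 1 time in the ARHGEF17 stretch, where it was part of GGACT, 2 times in PCBP1 and 1 time in ZBTB12, and it was not in the windows shown for TRMT44 and SON. As a background, 66.3% of 35116 RefSeq start windows of 300 bases held GGAC on the given strand and 87.4% on either strand. For GGACT the shares were 25.3% and 44.2%, and each GGACT is also a GGAC. A match describes the letters of the window and is not a modified site.

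Coding peaks made up 10.9% of the DF2 siRNA 1 list (95% interval 10.4 to 11.4%), 9.16% of the DF2 siRNA 2 list (8.67 to 9.66%) and 7.45% of the control list (7.04 to 7.88%). Both siRNA lists thus held more coding peaks than control, in number and as a share, although the control list was the longest. The 3 intervals did not overlap, but they take each peak as independent and cover counting error only. Of the peaks that touched coding sequence at all, 15.7% were coding peaks with DF2 siRNA 1, 14.1% with DF2 siRNA 2 and 12.2% in control. Among the 50% of peaks with the highest score in each list, an alternative chosen after seeing the data, the numbers were nearly level at 687, 661 and 670, or 10.5%, 9.93% and 8.77% of those peaks. Score is the authors' whole number per peak, at least 3, and since no source states how it was made it ranks peaks within a list only. An FDR under 0.01 was held by 80.7% of DF2 siRNA 1 coding peaks, 79.9% of DF2 siRNA 2 coding peaks and 81.5% of control coding peaks.

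Taken by length, the order of the lists was the other way. The mean coding peak covered 692 bases with DF2 siRNA 1, 762 with DF2 siRNA 2 and 846 in control, and the median was 600 bases in each list. All coding peaks together covered 992 kb with DF2 siRNA 1, 929 kb with DF2 siRNA 2 and 963 kb in control. The siRNA lists therefore held more and shorter coding peaks over about the same number of bases. Peaks of every other class averaged 694, 756 and 787 bases in the DF2 siRNA 1, DF2 siRNA 2 and control lists. How far library depth set the length of the peaks was not tested. By chromosome, coding peaks took the largest share of all peaks on chromosome 13 in each list, at 21.6%, 17.9% and 14.1% in the DF2 siRNA 1, DF2 siRNA 2 and control lists. Chromosome 17 had the lowest share with DF2 siRNA 1, 6.46%, and in control, 5.48%, and chromosome 16 had the lowest with DF2 siRNA 2, 5.90%.

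Most coding peaks of one list lay where the other lists had a peak of some class. Peaks were taken to overlap when their blocks, on one strand, had 1 or more bases in common. In the control list, 217 of 1432 DF2 siRNA 1 coding peaks (15.2%) found no overlapping peak, against 18.5% of all DF2 siRNA 1 peaks. For DF2 siRNA 2 the number was 154 of 1219 (12.6%), against 13.9% of all its peaks. In the other direction, 283 of 1138 control coding peaks (24.9%) had no overlapping peak in the DF2 siRNA 1 list, against 32.9% of all control peaks, and 248 (21.8%) had none in the DF2 siRNA 2 list, against 26.6%. Between the siRNA lists, 221 DF2 siRNA 1 coding peaks (15.4%) had no DF2 siRNA 2 peak, against 16.4% of all its peaks, and 195 DF2 siRNA 2 coding peaks (16%) had no DF2 siRNA 1 peak, against 19.5%. In each of these 6 directions the share without a partner was lower for coding peaks than for all peaks of the list, by the most where control peaks were looked up with DF2 siRNA 1. It was lower still for stop codon peaks and higher for 5′ UTR peaks in each direction. For DF2 siRNA 1 peaks in control these were 10.8% and 42.6%, and for control peaks with DF2 siRNA 1 they were 18.1% and 35.7%.

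Both other lists held an overlapping peak for 78.4% of DF2 siRNA 1, 76.9% of DF2 siRNA 2 and 70.6% of control coding peaks, against 75.9%, 73.2% and 62.8% of all peaks of those lists. For stop codon peaks the shares were 85.1%, 86.2% and 78.2%. Neither other list did for 129 DF2 siRNA 1 coding peaks (9.01%, against 10.8% of all its peaks), 67 DF2 siRNA 2 coding peaks (5.50%, against 6.51%) and 196 control coding peaks (17.2%, against 22.3%). An identical outline, base for base, was shared by 467 coding peaks of the 2 siRNA lists, by 296 of DF2 siRNA 1 and control, and by 347 of DF2 siRNA 2 and control, with 199 identical in all 3. The 467 were 32.6% of DF2 siRNA 1 and 38.3% of DF2 siRNA 2 coding peaks. The 296 were 20.7% of DF2 siRNA 1 and 26.0% of control coding peaks, and the 347 were 28.5% of DF2 siRNA 2 and 30.5% of control coding peaks. The siRNA lists share the control list in these comparisons.

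Overlap went with score. All 104 control coding peaks at or above score percentile 90 of their list overlapped a peak in both siRNA lists. Below percentile 50, 212 of 468 (45.3%) did so in the DF2 siRNA 1 list and 260 of 468 (55.6%) in the DF2 siRNA 2 list. Of DF2 siRNA 1 coding peaks under percentile 50, 79.3% overlapped a control peak, and of those at or above percentile 90, 98.0% did. For DF2 siRNA 2 the values were 81.6% and 99.1%.

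The class of the overlapping peak differed most where coding peaks of the siRNA lists were looked up in control. Of the 1215 DF2 siRNA 1 coding peaks found in control, 430 (35.4%, 32.7 to 38.2%) had as their largest overlapping peak one of another class, against 13.8% of all DF2 siRNA 1 peaks found there. These shares are unlike measures. A coding peak leaves its class once it touches any other part, while every peak that touches a stop codon counts as a stop codon peak. The same limit holds for each later comparison of class changes with all peaks. In 323 of the 430 the control peak covered a stop codon, in 78 it reached into the 5′ UTR and in 18 into the 3′ UTR. The control peak was the wider one in 419 of the 430, with a median of 1600 covered bases against 600 for the coding peaks. The same look-up for DF2 siRNA 2 gave 274 of 1065 (25.7%, 23.1 to 28.5%), against 10.7% of all its peaks found there. Here the control peak was wider in 262 of the 274, and 197 covered a stop codon. The median coding peak of these sets lay wholly inside the control peak. The control peak was met by more than 1 peak of the siRNA list in 197 of the 430 cases (45.8%) with DF2 siRNA 1 and in 117 of the 274 (42.7%) with DF2 siRNA 2. All peaks of the siRNA list together covered a median of 60% of its bases with DF2 siRNA 1 and 66.7% with DF2 siRNA 2. These covered bases were computed after seeing the data.

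The reverse look-up gave smaller shares. Of the 855 control coding peaks found with DF2 siRNA 1, 105 (12.3%, 10.2 to 14.7%) met another class, against 12.4% of all control peaks found there, and of the 890 found with DF2 siRNA 2, 122 (13.7%, 11.5 to 16.1%) did, against 10%. Between the siRNA lists, 267 of 1211 DF2 siRNA 1 coding peaks (22%) met another class in the DF2 siRNA 2 list, against 9.56%, and 91 of 1024 DF2 siRNA 2 coding peaks (8.89%) met another class in the DF2 siRNA 1 list, against 8.61%. Where both overlapping peaks had to share at least 50% of their covered bases, the share was 22.2% for DF2 siRNA 1 in control and 16.2% for DF2 siRNA 2 in control. The coding peaks that met another class in control thus mostly lay inside a longer control peak that ran on into a stop codon or UTR, and how far the depth of the libraries set this was not tested.

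**Figure D1:**
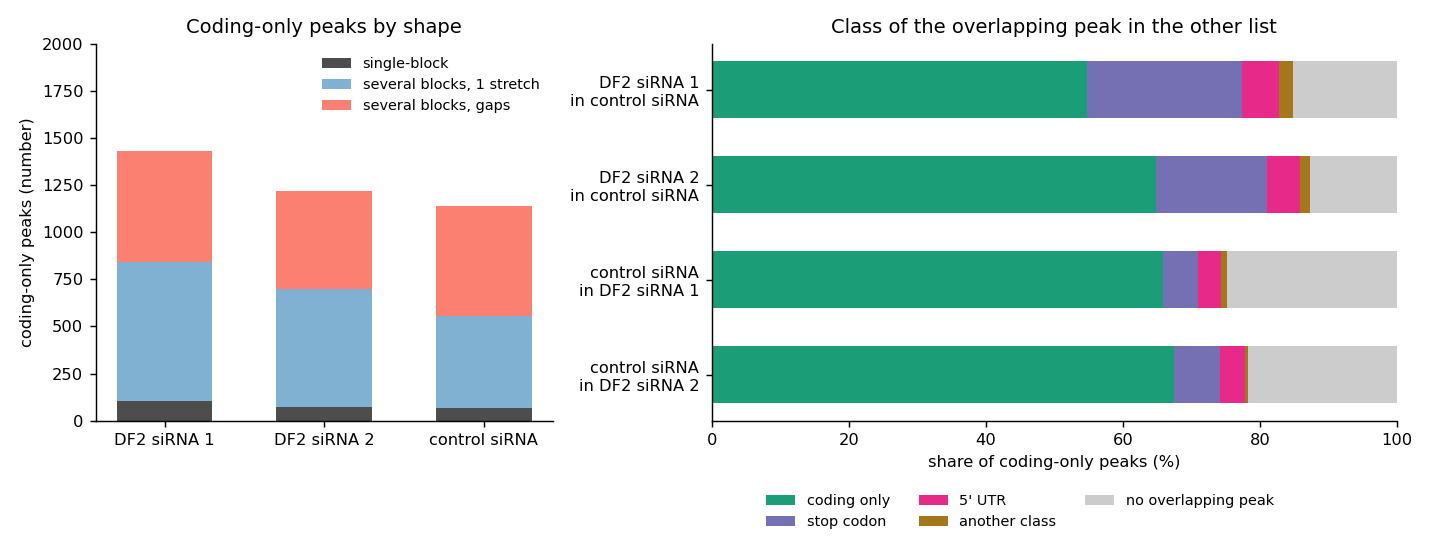
Left, number of coding peaks (y axis) in each list, stacked by shape: 1432 with DF2 siRNA 1, 1219 with DF2 siRNA 2 and 1138 in control. Right, share of the coding peaks of the first-named list (x axis, %) by the class of their largest overlapping peak in the second-named list; stop codon peaks take 22.6% of DF2 siRNA 1 and 16.2% of DF2 siRNA 2 coding peaks looked up in control, and 5.01% and 6.77% of control coding peaks looked up in the DF2 siRNA 1 and DF2 siRNA 2 lists.

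Coding peaks of both siRNA lists that met only another class in control numbered 183 of the 1432 of DF2 siRNA 1 (12.8%), against 5.07% of all DF2 siRNA 1 peaks for the same pattern in their own class. By the class rule given above, these shares are unlike measures too. The 10 of highest score in the DF2 siRNA 1 list were a set added after seeing the data. CHSY1, a chondroitin synthase, had coding peaks of 1000 and 1200 bases with DF2 siRNA 1 and DF2 siRNA 2, against a control peak of 2000 bases that reached the 5′ UTR. DSP, which encodes the desmosomal protein desmoplakin, had coding peaks of 2000 and 1800 bases in the siRNA lists, against a control peak of 4600 bases that covered the stop codon. The dermatan sulfate epimerase-like gene DSEL had 3000 and 2200 bases, against a stop codon peak of 4800 bases in control. GOLGA4, a Golgi coiled-coil protein, had 1200 and 1000 bases in the siRNA lists, against 2000 bases in control, and WNK1, a kinase of ion transport, had 400 bases in each siRNA list, against 800 in control. In these 5 genes the control peak was the longer one, but other DF2 siRNA 1 peaks lay on it too in 4 of them. All DF2 siRNA 1 peaks together covered 1400 bases of the control peak in CHSY1, 4200 in DSP, 3800 in DSEL and 1600 in GOLGA4, and in WNK1 400. TACC2 did not follow this, with 2400 covered bases in all 3 lists and both ends 200 bases further downstream in control. The set also held CEMIP2, PLCL2 and RPS6KC1, with 600, 800 and 1000 bases in the DF2 siRNA 1 list and 600, 1000 and 1400 in the DF2 siRNA 2 list, against 800, 2400 and 1600 in control.

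The mirror image, control coding peaks that met only another class in both siRNA lists, numbered 65 of 1138 (5.71%), against 3.78% of all control peaks for the same pattern. Among the 10 of highest control score, TRABD2A, a membrane protease that acts on Wnt proteins, covered 800 bases in each siRNA list and reached the 5′ UTR there, against 600 coding bases in control. FAM83H, a keratin-associated protein, covered 3800 and 3000 bases with a stop codon in the DF2 siRNA 1 and DF2 siRNA 2 lists, against 1800 coding bases in control. PKD1, which encodes polycystin, held 2 of the 10 control coding peaks, of 1200 and 2000 bases. Both met a single DF2 siRNA 1 peak of 4000 bases with a stop codon, and with DF2 siRNA 2 they met peaks of 1600 and 2200 bases. ASXL1, a chromatin regulator, covered 4400 bases in each siRNA list, against 2200 coding bases in control. The ubiquitin-conjugating enzyme UBE2L3 and BRAT1 differed by a single 200-base step, with 400 and 1000 bases in each siRNA list, against 200 and 800 in control. TNS1, NAB2 and LATS2, a tensin, a co-repressor of EGR proteins and a Hippo pathway kinase, made up the rest. All 10 of these control peaks were the shorter partner in both siRNA lists. In FAM83H, PKD1, ASXL1 and LATS2 the DF2 siRNA 1 peak was met by 2 control peaks, which together covered 2800, 3200, 3800 and 2200 of its bases.

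A coding peak in control with no peak of any class in either siRNA list was a weak one by its own list's ranking. The 196 such peaks had a median score percentile of 16.8 and a median of 400 covered bases, 39 of them were single blocks, and 162 genes held them. The 10 of highest control score included peaks in AHCTF1, a nucleoporin gene, ZNF644, WDR44, the deubiquitinase gene USP34, SLC25A46, the peptidase gene NLN, SYNE2, KMT2A and DICER1. The 10 stood between percentile 77.0 for AHCTF1 and 60.8 for DICER1, with fold enrichments of 15.1 and 13.8, where fold enrichment is the authors' value for each peak. SYNE2, a nesprin that ties the nucleus to the cytoskeleton, had the highest fold enrichment of the 10, at 38.8 over 1000 bases. KMT2A, a histone methyltransferase, held 4 coding peaks with DF2 siRNA 1, 5 with DF2 siRNA 2 and, this one included, 3 in control, so for this gene a peak and not the gene was without a partner.

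Of the 1432 DF2 siRNA 1 coding peaks, 70 (4.89%) overlapped a DF2 siRNA 2 coding peak where neither met a control peak, against 6.66% of all DF2 siRNA 1 peaks with a DF2 siRNA 2 peak of their own class and no control peak. Their median score percentile in the DF2 siRNA 1 list was 39.7, and they lay in 69 genes. The highest mean percentile was that of MLLT1, a subunit of the super elongation complex, at percentile 88.1 with DF2 siRNA 1 and 84.3 with DF2 siRNA 2 over 800 and 600 bases. PPM1G, a protein phosphatase, stood at 80.1 and 87.8, and PPP1R10, a regulatory subunit of protein phosphatase in the nucleus, at 84.7 and 77.4. COL5A1, a fibrillar collagen, had the same ends and 400 bases in 4 separate stretches in both siRNA lists, at percentiles 79.5 and 82.5. PSAP, the precursor of the saposins, had the same ends and 200 bases split over 2 stretches in both, at 74.0 and 73.2. TNRC18, IGSF8, ENTR1, CASKIN2 and WIZ completed the 10, down to percentile 63.4 with DF2 siRNA 1 and 70.4 with DF2 siRNA 2 for WIZ. TNRC18 also held a second coding peak, present in all 3 lists.

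Blocks in the lists are at most 200 bases long, and the covered width of a coding peak was a multiple of 200 bases in 99.4 to 99.7% of cases. A single-block coding peak is therefore 1 such step, and a multi-block peak is either 1 longer continuous stretch or a set of stretches with gaps between them. Single-block peaks were 103 of 1432 with DF2 siRNA 1 (7.19%), 71 of 1219 with DF2 siRNA 2 (5.82%) and 69 of 1138 in control (6.06%). Among peaks of other classes the shares were 10.1%, 8.44% and 10.1%. Multi-block peaks in 1 continuous stretch were 51.7%, 51.4% and 42.8% of the coding peaks of the DF2 siRNA 1, DF2 siRNA 2 and control lists. Those with gaps were 41.1% (38.5 to 43.7%), 42.7% (39.9 to 45.6%) and 51.1% (48.2 to 54.1%). Gapped peaks were thus the largest shape in control and continuous ones in both siRNA lists.

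Single-block coding peaks ranked low. Their median score percentile was 18.7 with DF2 siRNA 1, 17.9 with DF2 siRNA 2 and 9.15 in control, against 50.5, 55.4 and 59.8 for the multi-block coding peaks of those lists. The median fold enrichment was 7.27, 8.99 and 6.85 for single-block peaks, and 15, 18.9 and 21.6 for multi-block ones. An FDR under 0.01 was held by 35.0%, 32.4% and 39.1% of single-block peaks, and by 84.2%, 82.8% and 84.3% of multi-block ones. Single-block peaks were also found less in the other lists, both of which held a partner for 42.7% with DF2 siRNA 1, 26.8% with DF2 siRNA 2 and 18.8% in control. The order of the lists is not stable, since the control share was 37.0% at equal list lengths and the DF2 siRNA 1 share 27.8% with an FDR under 0.01. For multi-block peaks these shares were 81.2%, 79.97% and 73.9%. Where single-block peaks had a partner, it was mostly a multi-block peak. Partners of DF2 siRNA 1 single-block peaks were single blocks themselves in 8 of 63 cases in control and 8 of 58 with DF2 siRNA 2. For DF2 siRNA 2 single-block peaks this was so in 7 of 43 cases in control and 8 of 27 with DF2 siRNA 1. For control single-block peaks it was 8 of 19 with DF2 siRNA 1 and 7 of 24 with DF2 siRNA 2.

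Width ran through these differences. Coding peaks of 200 or fewer covered bases had a partner in both other lists in 40.3% of cases with DF2 siRNA 1, 25.2% with DF2 siRNA 2 and 20.9% in control. For those over 2000 bases the shares were 100% of 28, 100% of 29 and 95.9% of 49. At equal width, gapped peaks ranked above continuous ones in each list. Among peaks of exactly 600 bases the median percentile was 59.5 for gapped and 49.2 for continuous peaks with DF2 siRNA 1, 61.0 and 47.5 with DF2 siRNA 2, and 65.9 and 46.5 in control. The same order held at 200, 400 and 800 bases in all 3 lists.

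**Figure D2:**
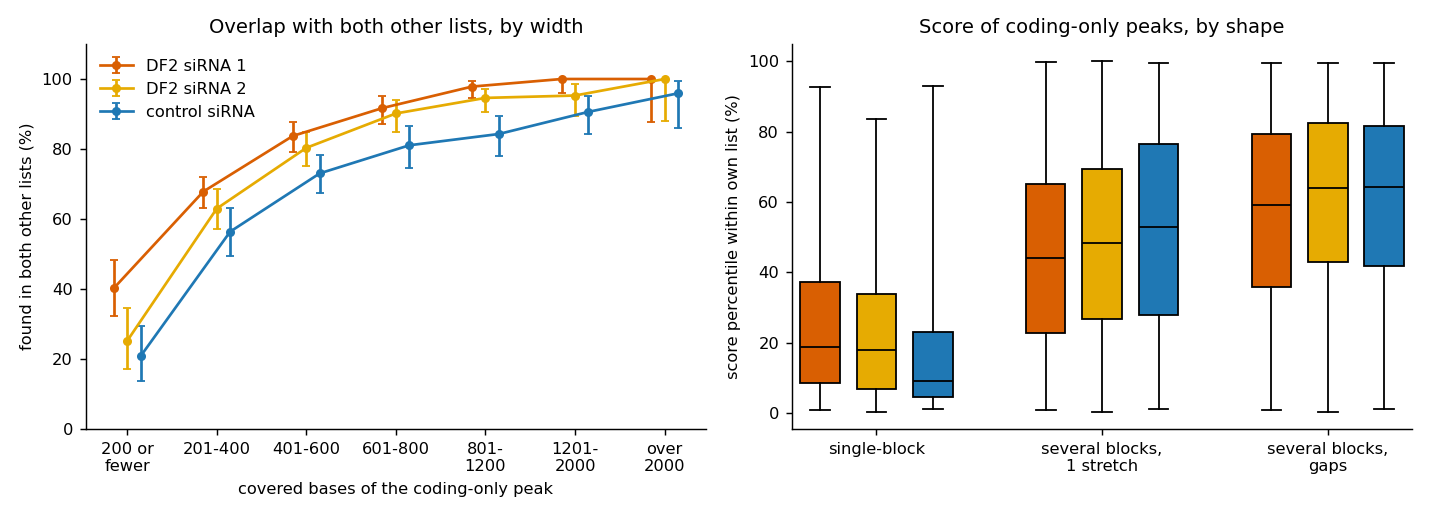
Left, share of coding peaks with an overlapping peak in both other lists (y axis, %) by covered bases (x axis); points are shares and bars 95% exact binomial intervals, and the share climbs from the narrowest group, 40.3% with DF2 siRNA 1, 25.2% with DF2 siRNA 2 and 20.9% in control, to the widest. Right, score percentile within the own list (y axis, %) by shape; lines are medians, boxes quartiles and whiskers the full range, and single-block peaks have medians of 18.7, 17.9 and 9.15 in the DF2 siRNA 1, DF2 siRNA 2 and control lists.

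A few single-block coding peaks were fixed in place in all 3 lists, and that of BCLAF1 was also strong in each. The peaks named here were picked out after their values were seen. BCLAF1, a splicing and transcription factor, had the same 200 bases, chr6:136276058-136276257 on the minus strand, called in all 3 lists. It stood at percentile 79.3 with DF2 siRNA 1, 83.8 with DF2 siRNA 2 and 92.9 in control, with fold enrichments of 26.2, 23.7 and 38.8. SPIN2B, a spindlin that reads histone marks, and RPL7L1, a relative of a ribosomal protein, also had a single block at one place in all 3 lists. SPIN2B stood at percentiles 50.5, 65.3 and 71.8, and RPL7L1 at 43.1, 53.5 and 66.5, in the DF2 siRNA 1, DF2 siRNA 2 and control lists. ATF4, a stress-response transcription factor, was not fixed in this way. It had a single block of 200 bases with DF2 siRNA 1 at percentile 77.8. At the same start the DF2 siRNA 2 list held a peak of 314 bases that reached the stop codon, and control held none.

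The longest coding peaks lay in genes with very long coding exons. AHNAK, a giant scaffold protein, held 49 blocks in 1 stretch of 9800 bases in control. Of these bases 9600 were also covered in each siRNA list, by 1 coding peak and 1 stop codon peak. The break between neighbouring peaks lay at another place there. CENPF, a kinetochore protein, held 39 blocks over 6600 bases in control, of which 4 DF2 siRNA 1 coding peaks covered 5400 and 3 DF2 siRNA 2 coding peaks 4000. FAT4, an atypical cadherin, held 5000 bases in control, of which 2 coding peaks in each siRNA list covered 4600 with DF2 siRNA 1 and 4400 with DF2 siRNA 2. USF3 had 6200 bases in control, with 3800 of them under 4 DF2 siRNA 1 coding peaks and 4000 under 3 DF2 siRNA 2 coding peaks. BOD1L1, a protein of stalled replication forks, had 4200 bases in control and 1 coding peak of 2400 of those bases in each siRNA list. In 4 of these 5 genes the siRNA lists thus held several shorter peaks where control held 1, and the bases covered by any peak differed less than the widths of single peaks. Control is the list that chose these peaks.

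The coding peaks of highest score were held in common. TUBB4B, a beta-tubulin, PLIN4, a lipid droplet protein, and PRRC2A, reported as an m6A reader in mouse, were among the 10 of highest score in all 3 lists. TUBB4B had a fold enrichment of 99.5 with DF2 siRNA 1, 47.3 with DF2 siRNA 2 and 21.8 in control, at percentiles 99.7, 99.7 and 99.5. PLIN4 had 239, 135 and 78.6, at percentiles 99.6, 99.5 and 98.7. PRRC2A had 112, 53.1 and 41.0, at percentiles 99.5, 99.3 and 99.1, over 2000 and 1800 bases in the siRNA lists, against 800 in control, where a second coding peak of 800 bases lay beside it. Fold enrichments of different lists are set side by side and measure no change. EPPK1, a plakin that links intermediate filaments, led both siRNA lists with folds of 397 and 320, against 69.5 at percentile 94.2 in control. SCAF1, a partner of RNA polymerase, and TNRC18 were among the 10 of both siRNA lists.

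Some of the strongest coding peaks changed class between lists. PPP1R9B, the scaffold spinophilin, was a coding peak of 1400 bases with DF2 siRNA 2 and in control, and with DF2 siRNA 1 a peak of 1600 bases that reached the 5′ UTR. CELSR2, a cadherin of planar cell polarity, had 3400 bases with DF2 siRNA 2 and 3200 in control, and 3800 bases with the 5′ UTR under DF2 siRNA 1. ZNF831 had 3000 bases with DF2 siRNA 2 and in control, against 4600 bases with the 5′ UTR under DF2 siRNA 1. SON, a scaffold of nuclear speckles, had 1 coding peak of 5400 bases with DF2 siRNA 1. With DF2 siRNA 2 the gene had coding peaks of 2800 and 2000 bases in that stretch, and control had coding peaks of 4400 and 1000 bases that overlapped it. NIPBL, the cohesin loader, had 2 coding peaks in each siRNA list where control had 1 of 2400 bases at percentile 98.6. They were 800 and 1200 bases at percentiles 95.1 and 85.0 with DF2 siRNA 1, and 800 and 1000 bases at percentiles 93.9 and 86.4 with DF2 siRNA 2, and covered 2000 and 1800 of the control peak's bases. BLTP2, PCNX3, PTGFRN and BCL9L were coding peaks in all 3 lists, and BCL9L, a Wnt co-activator, had 1 outline of 2000 bases in each. PODXL2, from the 10 of highest score with DF2 siRNA 1, was a coding peak in each list too, of 1000, 800 and 800 bases.

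**Figure D3:**
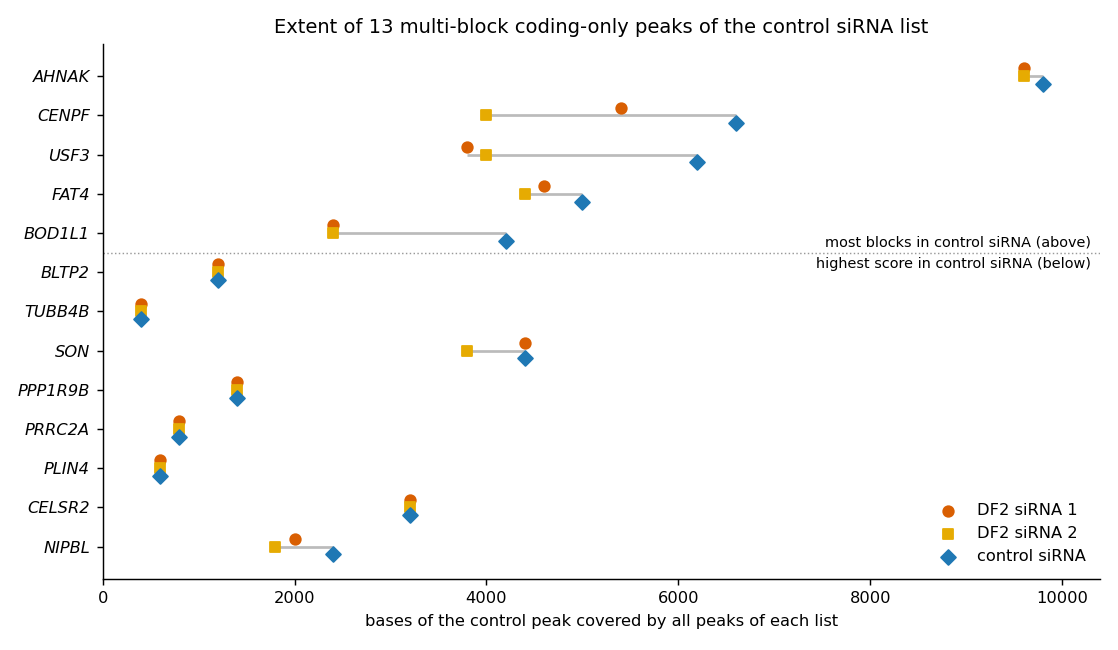
Bases of a control coding peak (x axis) that all peaks of any class in the DF2 siRNA 1 and DF2 siRNA 2 lists also covered, beside the width of the control peak itself (points), for the 5 control multi-block coding peaks with most blocks (upper rows) and the 8 of highest control score (lower rows). AHNAK has 9600 bases in each siRNA list, against 9800 in control, and CENPF 5400 with DF2 siRNA 1 and 4000 with DF2 siRNA 2, against 6600; the control peak sets the upper limit.

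Genes with a coding peak numbered 1106 with DF2 siRNA 1, 961 with DF2 siRNA 2 and 858 in control, which was 13.2%, 11.2% and 8.99% of the genes with any peak in those lists. Between 8 and 11 coding peaks a list carried no gene name. Across the lists, 1456 genes held a coding peak somewhere. In all 3 lists there were 570 of these (39.1%), while 65.4% of genes with any peak had one in all 3. Both siRNA lists and not control held 206 (14.1%), against 3.54% for peaks of any class. These shares are unlike measures, since a gene counts in the first even where its control peak only has another class. The same holds for the other such pairs in this paragraph. Of these 206 genes, 190 had a control peak of another class and 16 had no control peak. The reverse set, control alone, held 165 genes (11.3%), against 12.0% for peaks of any class, and 86 of them had a peak of another class in both siRNA lists. With DF2 siRNA 1 alone there were 272 genes (18.7%, against 5.03% for peaks of any class) and with DF2 siRNA 2 alone 120 (8.24%, against 2.84%). A gene that lacked a coding peak in one list thus mostly had a peak of another class there.

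The same held gene by gene between pairs of lists. Of genes with a DF2 siRNA 1 coding peak, 60 (5.42%) had no control peak at all, against 11% of all genes with a DF2 siRNA 1 peak, and 63 (5.70%) had no DF2 siRNA 2 peak, against 11.1%. For DF2 siRNA 2, 39 (4.06%) had no control peak, against 8.04%, and 57 (5.93%) had no DF2 siRNA 1 peak, against 13.1%. Of control genes, 94 (11%) had no DF2 siRNA 1 peak, against 22.1%, and 73 (8.51%) had no DF2 siRNA 2 peak, against 17.6%. A stop codon peak lay beside the coding peak in 43.9% of genes with DF2 siRNA 1 (41.0 to 46.9%), in 46.3% with DF2 siRNA 2 (43.1 to 49.5%) and in 54.4% in control (51.0 to 57.8%). Among all genes with a peak, 59.8%, 59.1% and 59.0% held a stop codon peak in those lists.

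Genes with coding peaks were long. Their median span in RefSeq was 58.2 kb with DF2 siRNA 1, 65.1 kb with DF2 siRNA 2 and 69.4 kb in control, against 28.1, 29.0 and 30.9 kb for the other genes with a peak. A protein-coding RefSeq entry was matched by 98.0 to 98.4% of the genes with a coding peak and by 80.1 to 86.5% of the other genes. Along the gene span, in the direction of transcription, the middle of a coding peak had its median at 67.7%, 67.3% and 66.3% in the DF2 siRNA 1, DF2 siRNA 2 and control lists. Stop codon peaks had theirs at 89.3%, 89.3% and 88.8%, and 5′ UTR peaks at 1.82%, 2.55% and 4.29%. The last 20% of the span held 33.8%, 32.8% and 31.8% of the coding peaks, and the first 20% held 13.6%, 13.2% and 13.3%. The span includes introns, so this is not a position along the mRNA. The spread along the gene differed little between the lists.

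**Figure D4:**
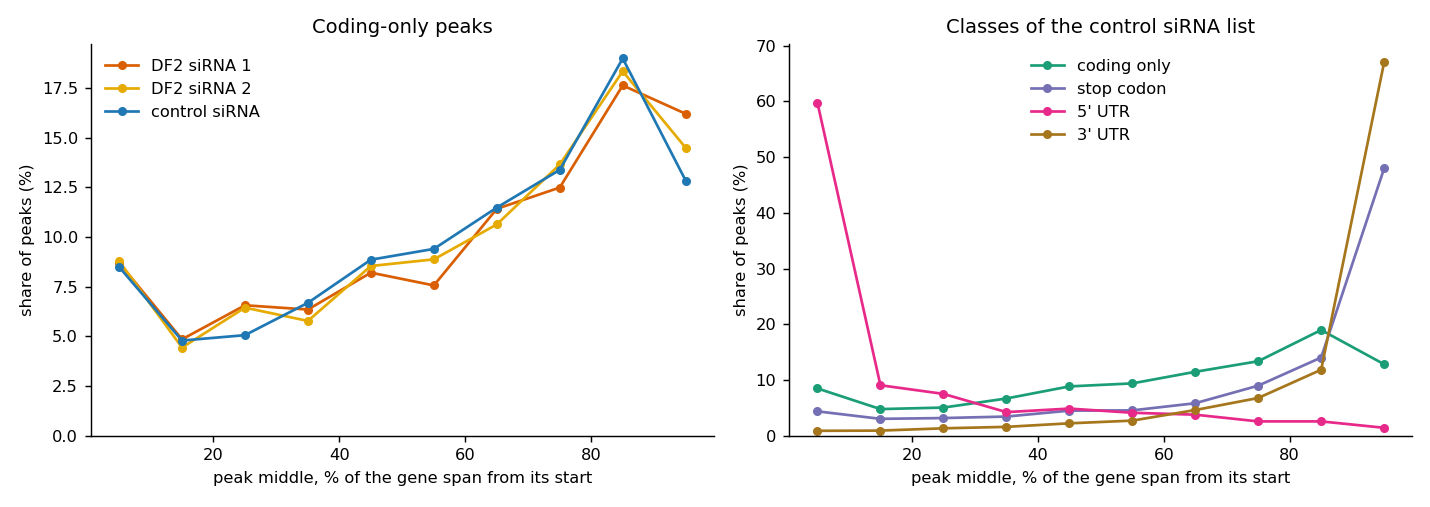
Share of peaks (y axis, %) by the position of the peak's middle along the RefSeq gene span in the direction of transcription (x axis, %, in steps of 10). Left, coding peaks of each list, with medians at 67.7%, 67.3% and 66.3% in the DF2 siRNA 1, DF2 siRNA 2 and control lists; right, the classes of the control list, where coding peaks lie across the gene and 5′ UTR and 3′ UTR peaks at its ends.

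Several coding peaks in 1 gene were held by 219 genes with DF2 siRNA 1, 171 with DF2 siRNA 2 and 176 in control. MUC16, a giant mucin, had the most in control, 20, with 14 in the DF2 siRNA 2 list and 1 in the DF2 siRNA 1 list. Its peaks were weak, none above score percentile 27.9 in control, and covered 400, 8200 and 14800 bases in the DF2 siRNA 1, DF2 siRNA 2 and control lists. DST, a cytoskeletal linker, had 3, 4 and 7, and FAT4 had 5, 6 and 6. The histone methyltransferase KMT2D had 6, 4 and 5, MACF1, a linker of actin and microtubules, 3, 1 and 5, and ZFHX3, a transcription factor, 6, 3 and 5. MAP1A, a microtubule-associated protein, had 0, 4 and 5, and F8, which encodes a clotting factor, had 0, 0 and 4, all 4 at or under percentile 15.4. EPPK1 had 3, 4 and 5, and BRCA2, a DNA repair protein, 2, 2 and 4. In MUC16 and MAP1A the counts of the 2 siRNA lists thus differed from each other, and in MAP1A the DF2 siRNA 1 list held no peak of any class. Outside the rule for control, and chosen after their values were seen, RNF213 had 6 coding peaks with DF2 siRNA 1, 4 with DF2 siRNA 2 and 3 in control. ZDBF2 had 5 in each siRNA list and none in control, where its 1 peak was of another class.

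Read placement limits some of these. MUC16, EPPK1 and PLIN4 carry long near-identical repeats, PKD1 has near-identical pseudogenes, and TUBB4B and SPIN2B have close relatives. The sources used here do not say how reads that match several places were handled, so the peaks of these genes are uncertain.

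The 13 gene lists were read as counts of members with a coding peak among members with any peak, beside the shares for all genes of 13.2%, 11.2% and 8.99% in the DF2 siRNA 1, DF2 siRNA 2 and control lists. They were drawn up with earlier results of these data known. The shares for all genes count every gene with a peak, non-coding RNA genes included. Of genes without a coding peak, only 80.1 to 86.5% matched a protein-coding entry. Those shares are thus a low baseline for lists of protein-coding genes, and gene length was not matched. Cytoskeletal linkers and giant adhesion proteins held coding peaks in 16 of 29, 18 of 30 and 18 of 29 members (55.2%, 60.0% and 62.1%). CELSR1, for example, stood at percentiles 94.5, 91.5 and 95.2 in the DF2 siRNA 1, DF2 siRNA 2 and control lists. Genes of the centrosome, kinetochore and mitosis had 18 of 32, 18 of 32 and 15 of 31, among them PCNT, a pericentriolar scaffold, with 3 coding peaks in each list, and MKI67, the proliferation marker, with 5, 5 and 4. Transcriptional co-regulators had 19 of 36 members in each list. TCF20 had 3, 1 and 1 coding peaks and MED13, a Mediator subunit, 2, 2 and 1.

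DNA damage and repair genes had 16 of 28, 15 of 27 and 14 of 32. MDC1, a damage checkpoint mediator, had 1 coding peak of 800 bases in each list, at percentiles 85.5, 87.5 and 90.5. Chromatin regulators had 31 of 64, 28 of 63 and 29 of 64. HCFC1 stood at percentiles 97.9, 98.6 and 97.5, and EP300, an acetyltransferase, had a coding peak with DF2 siRNA 1 only, with peaks of other classes in the other lists. Receptor adaptors and scaffolds had 15 of 31, 14 of 34 and 14 of 32. HUWE1, a ubiquitin ligase, had 1 coding peak of 800 bases in each list. In these 6 lists, 41.2 to 62.1% of members with a peak held a coding one.

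Genes of mRNA decay and m6A reading had 9 of 36, 10 of 34 and 7 of 33 members with a coding peak (25%, 29.4% and 21.2%). PRRC2A, PRRC2C, TNRC6B, which acts in miRNA silencing, and the methyltransferase partners ZC3H13 and VIRMA held one in all 3 lists. ZC3H13 had 3 in each list. Nuclear speckle and splicing genes had 6 of 24, 5 of 20 and 4 of 26, with SON, SRRM2, THRAP3 and BCLAF1 in all 3 lists. The highest-scoring coding peaks of SRRM2 and THRAP3 covered 600 bases in each. Collagens had 4 of 14, 5 of 15 and 4 of 17, and cadherins with clustered protocadherins 2 of 6, 3 of 6 and 0 of 4, where the interval for control reaches 60.2%.

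ZNF family genes, which encode zinc finger transcription factors, were the largest list, with 92 of 368 (25%, 20.7 to 29.8%), 69 of 393 (17.6%, 13.9 to 21.7%) and 53 of 418 (12.7%, 9.64 to 16.3%). Of these, 29 genes held a coding peak in all 3 lists, 21 in both siRNA lists and not control, and 13 in control alone. ZNF703 had 1 coding peak of 800 bases in each list, at percentiles 90.9, 89.2 and 84.5. ZNF622 and ZNF451 held one in each siRNA list and only other classes in control. Their shares followed the order of the shares over all genes. Transcription factors with a single or long exon had 6 of 43, 3 of 43 and 2 of 42, with EGR1, an immediate early gene, and FOXO3 in all 3 lists. Ribosomal protein genes had 1 of 16, 1 of 19 and 2 of 22, namely RPL7L1 in all 3 lists and RPS24 in control, at percentile 5.65.

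**Figure D5:**
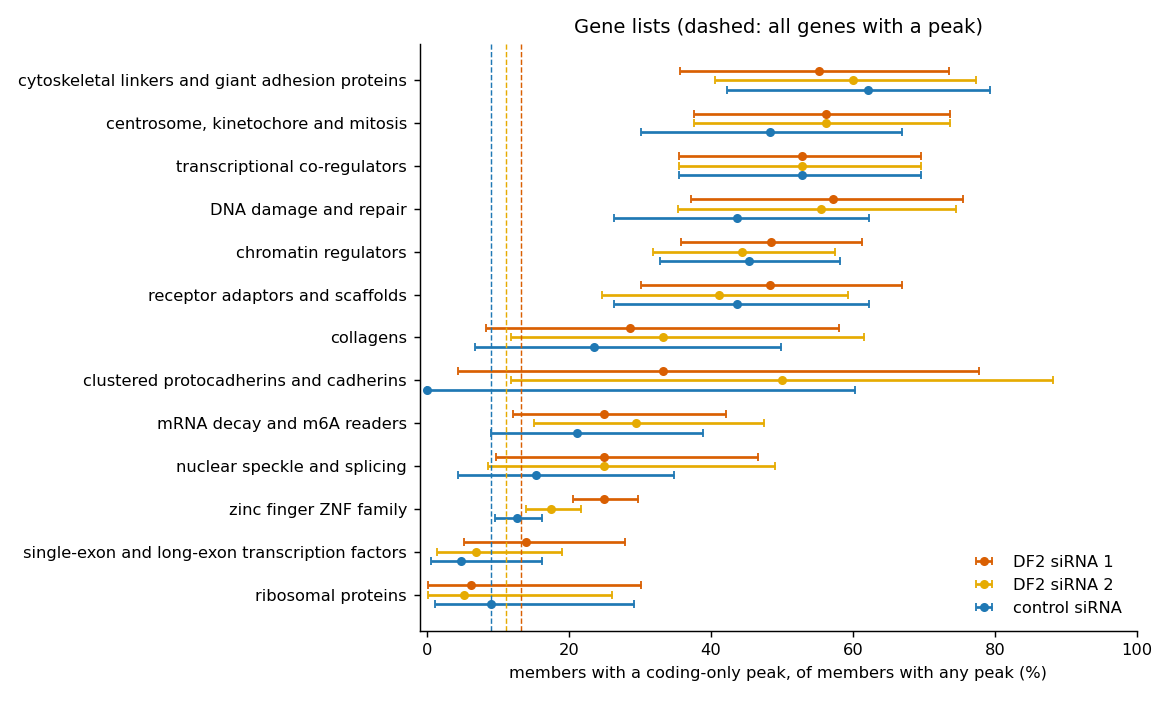
Share of the members with any peak that hold a coding peak (x axis, %) for 13 gene lists, with points for the DF2 siRNA 1, DF2 siRNA 2 and control lists, bars for 95% exact binomial intervals and dashed lines for all genes with a peak (13.2%, 11.2% and 8.99%). Cytoskeletal linkers stand at 55.2%, 60.0% and 62.1%, and ribosomal proteins at 6.25%, 5.26% and 9.09%.

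Beside peaks of the other classes, coding peaks were of middling score. Their median score percentile was 48.0 with DF2 siRNA 1, 53.7 with DF2 siRNA 2 and 57.7 in control, against 50.5, 49.5 and 49.3 for all other peaks. Stop codon peaks stood at 65.7, 66.5 and 68.5 and 5′ UTR peaks at 38.6, 40.2 and 37.0. Coding peaks thus lay between the stop codon and 5′ UTR classes in each list. Their share of single blocks was below that of the other peaks in each list, as given above, and their share of gapped peaks was 51.1% in control, against 44.7% of the other control peaks, with 41.1% against 40.4% in the DF2 siRNA 1 list and 42.7% against 42.1% in the DF2 siRNA 2 list.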

How the data were processed

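Reads were aligned with HISAT2 to hg38, per the submitters' processing notes. What called the peaks, how runs were merged, which gene annotation was used and how multiply matching reads were handled: not given in the sources used here. Per condition the authors deposited 1 merged list, and per the file headers each peak has blocks, a gene, the transcript parts it touches and the values below. The score is the authors' whole number per peak, with no stated definition. The fold enrichment (ratio) and the −log10 FDR are the authors' values per the file headers, and every deposited FDR is under 0.05. The number of blocks (blockCount) is as deposited. Depth is unknown, so precision is that of the number of peaks.

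Block sizes on the minus strand were reversed to match their starts. Score percentiles are average ranks within a list. A peak's partner in another list is the peak with most shared bases, and blocks under 10 bases apart count as 1 stretch. Of 1456 gene symbols with a coding peak, 1338 were current in RefSeq GRCh38.p14, 94 were updated and 24 were kept. Named genes are the 10 coding peaks of highest score per list, the 10 control genes with most coding peaks, the 8 multi-block control peaks of highest score and 5 with most blocks, 10 of each overlap pattern, and up to 5 members of each gene list by score percentile. The members and lists were chosen with earlier results of these data known. Alternatives were an FDR under 0.01, equal list lengths, the top 50% by score, 50% of bases in common, gaps of 100 bases, no strand, joined blocks and symbols as in the files. Members of the named sets that are not named are not reported here. The overlap search was tested on simulated data. Python 3.11.15, pandas 2.3.3, numpy 2.4.6, scipy 1.17.1 and matplotlib 3.10.9 were used. The bases of a named peak covered by all overlapping peaks of another list were added after seeing the data.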

Additional observations from a re-analysis of the deposited data

Results flagged for a closer look

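Among chromatin regulators, members with a coding peak numbered 31 with DF2 siRNA 1 and 28 with DF2 siRNA 2, against 29 in control, so the siRNA lists lay on opposite sides of control, by 2 and -1. Of the members with any peak these were 48.4% (35.8 to 61.3%), 44.4% (31.9 to 57.5%) and 45.3% (32.8 to 58.3%), so the intervals overlapped widely. The shares for all genes were 13.2%, 11.2% and 8.99%. This difference between the siRNAs was not tested, as each condition has 1 list.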

How the results depend on the processing

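Results are given for 8 alternatives, 2 uses of which were chosen after seeing the data. Among 104 recomputed values that answer a comparison, 68 stayed within the interval (counts, within 1.5 times) and 36 moved, none changing sign. Orders are DF2 siRNA 1, DF2 siRNA 2, control throughout, and DF2 siRNA 1 precedes DF2 siRNA 2 where control peaks are looked up.

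In the top 50% by score, coding peaks were 9.93% of DF2 siRNA 2 and 8.77% of control peaks, 88.9% and 89.7% of the siRNA coding peaks were found in control, and 77.9% and 81.2% of control coding peaks in the siRNA lists. Genes with a coding peak were then 562, 552 and 543, with 350 in all 3 lists and 88 in both siRNA lists and not control. With 50% of bases in common, 58.5% and 67.4% of siRNA coding peaks were found in control and 62.7% and 67.0% of control ones in the siRNA lists, and another class was met by 22.2% and 16.2% and by 8.70% and 9.97%. With equal list lengths, 82.7% and 84.8% of control coding peaks were found in the siRNA lists. Multi-block peaks were then 97.3% of control coding peaks, and partners in both siRNA lists were held by 37.0% of single-block and 79.6% of multi-block control peaks.

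With an FDR under 0.01, multi-block shares were 96.9%, 97.6% and 97.1%, 27.8% of DF2 siRNA 1 single-block peaks had partners in both other lists, and control coding peaks were found with DF2 siRNA 2 by 2.67 percentage points more than other peaks. With joined blocks, multi-block shares were 41.1%, 42.7% and 51.1%, partners in both other lists were held by 77.7%, 72.3% and 64.4% of single-stretch peaks, and by 82.9% of DF2 siRNA 2 gapped peaks, since this setting counts long continuous peaks as single.

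Gene list counts moved by over 1.5 times in 6 of 117 recomputations, each in the cadherin, collagen or ribosomal list. No paired analysis was possible because each condition has 1 list. Unknown depth, unknown RNA levels and the lack of separate replicate lists limit every comparison between lists.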
